A study of Mus musculus with 4 samples.

Results

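Monocytes low in C1q are the barcodes (droplets, each taken as 1 cell) of 1 single-cell RNA library that carried monocyte transcripts and few transcripts of C1q, the complement component that tissue macrophages make. They were chosen by raw counts of unique molecular identifiers (UMIs, each standing for 1 captured RNA molecule): at least 10 of Lyz2, fewer than 5 of C1qa, C1qb and C1qc together, at most 1 of Cd3d, Cd3e and Cd3g together, at least 3 of Ly6c2 and Plac8 together, and 0 of Csf3r. The library held 11933 barcodes that had 500 genes or more and no more than 10% mitochondrial UMIs, and 656 of these met the rule, which is 5.50% (exact Clopper-Pearson 95% interval 5.10 to 5.92%, counting error only). The steps left 4112, 1684, 1128, 895 and 656 barcodes in that order. They were set beside 1277 C1q-positive macrophages, which had at least 5 C1q UMIs, at least 10 of Lyz2, at most 1 of Cd3 and 0 of Csf3r.

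The library came from wild-type B6 mice of the Thy1.2+ type that bore a chimeric tumour and had been given Thy1.1+ Pmel-1 T cells polarised as Tc1 cells, with an adjuvant. Tumours of 3 mice were pooled at day 30 after inoculation, enriched on Percoll and sorted, per the labels, for CD4+ T cells, so the sort was aimed at another cell type. The second RNA library came from mice of the same genotype and day that received Tc9 cells with the adjuvant, also a pool of 3. There, the same rule found 2 of 8204 barcodes (0.0244%, 0.00295 to 0.0880%), with 2028 and 2255 UMIs, and no comparison between the libraries was made. Each library is 1 pooled sample, so no value has a replicate error and none was tested; intervals cover counting error only.

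Classical monocytes leave the blood for inflamed tissue and tumours through CCR2, the receptor for the chemokine CCL2, and carry Ly6C on their surface in the mouse. In tissue they can become macrophages, switching on C1q, Apoe, Mrc1 and lysosomal genes while monocyte genes such as Ly6c2, Vcan and Chil3 are switched off. In tumours, monocytes and their descendants are known as sources of inflammatory cytokines and of arginase, which depletes an amino acid that T cells need.

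The genes of the gate describe the choice and are not results. Lyz2, the lysozyme of myeloid cells, ran from 10 to 391 UMIs per member (median 55), against 10 to 732 (median 34) in C1q-positive macrophages. Plac8 had a median of 13 UMIs and Ly6c2 of 4 in the members, against a median of 0 for both in the macrophages. C1q was at 0 UMIs in 422 members, at 1 or 2 in 209 and at 3 or 4 in 25. Summed over the members it reached 53.3 CPM (counts scaled to a total of 1000000 UMIs), against 7189 CPM in the macrophages, while T cells (5042 barcodes with at least 3 Cd3 UMIs) held 225 CPM. At least 1 C1q UMI was found in 35.7% of members and in 36.8% of T cells, a cell type not known to make it, at median depths of 9330.5 and 4697 UMIs. The rule fixed the C1q of the members and did not limit that of T cells, and the part of free RNA in it was not tested.

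At the edges of the rule the numbers were small. The 12 members with 4 C1q UMIs had 494 CPM of Ccr2 and 297 CPM of Vcan, and the 10 barcodes just outside, with 5 C1q UMIs, had 598 and 430 CPM. The 40 members with 3 UMIs of Ly6c2 and Plac8 had 445 CPM of Ccr2, and the 45 barcodes with 2 had 376 CPM. The 7 members with 10 Lyz2 UMIs had 696 CPM of Ccr2, and 19 barcodes with 9 had 153 CPM, while the shares of barcodes with a Ccr2 UMI were 85.7% and 73.7%. The receptor chain gene Trbc2 was seen in 10.4% of the 77 members with 1 Cd3 UMI, and in 45.8% of the 24 barcodes outside with 2.

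The members were deep. Their median was 9330.5 UMIs and 2666 genes, against 6189 UMIs and 1973 genes in C1q-positive macrophages. A minimum in raw UMIs keeps deep barcodes, and 517 of the macrophages that also met the step on Ly6c2 and Plac8 had a median of 9377 UMIs. These 517 are given throughout as macrophages with Ly6c2 or Plac8, a comparison at like depth that also shares a step of the rule. For shares of barcodes with a UMI each barcode was thinned at random to 2000 UMIs, which left 651 members, 1171 macrophages and 513 of those with Ly6c2 or Plac8. Of all barcode strings, 148 occurred in both RNA libraries, and 3 of these were members.

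The label was checked against markers outside the gate. Ccr2, a marker of monocytes that the rule did not use, had a UMI in 59.8% of the thinned members (55.9 to 63.5%), against 34.2% of C1q-positive macrophages. In macrophages with Ly6c2 or Plac8 the share was 58.9%, so Ccr2 did not set the members apart from these. In cells that should lack it, the share was 1.28% of 156 thinned melanoma barcodes; in T cells, some of which make Ccr2, it was 17.0%. All 9 classical monocyte markers, among them Ccr2, Vcan, Chil3, Fn1 and Hp, were found in at least 10% of the members, with 4204 CPM together, against 2431 CPM in the macrophages and 3104 CPM in those with Ly6c2 or Plac8. The 200 barcodes that failed only the step on Ly6c2 and Plac8 held more of these markers, 5153 CPM, so they do not set the members apart from those barcodes. Of the 11 non-classical markers, 5 were found in at least 10% of members, as in macrophages with Ly6c2 or Plac8. Together they held 921 CPM in the members, against 590 CPM in the macrophages and 705 CPM in those with Ly6c2 or Plac8. Of these sums, the gene Nr4a1 alone held 448, 165 and 253 CPM, so most of the difference lay in that gene. Of the 8 macrophage markers outside the gate, 7 were also found in at least 10% of members, at 3628 CPM together against 9077 CPM.

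Markers of other cell types were low in the members but not all at 0. The 8 neutrophil markers outside the gate summed to 54.0 CPM, against 16.1 CPM in the macrophages, and 2 of them were at 0. T cell markers outside the gate summed to 14.4 CPM, against 17.5 CPM in the macrophages and 1070 CPM in T cells. The 8 conventional dendritic cell markers summed to 73.3 CPM against 89.2 CPM, and the 4 mast cell or basophil markers were all at 0. The 5 plasmacytoid dendritic cell markers summed to 509.6 CPM against 796 CPM, mostly from Bst2, an interferon-induced gene, at 419 CPM in the members. In the members, NK cell markers summed to 3.75 CPM, B cell markers to 4.53 CPM and endothelial markers to 32.5 CPM, against 3.68, 12.5 and 32.3 CPM in the macrophages. No fibroblast marker had a UMI in over 1.52% of members, against 1.64% of macrophages. Red cell and platelet markers summed to 1196 CPM, and of the 5214 UMIs of the haemoglobin gene Hbb-bs, 4904 lay in 1 barcode. Melanoma markers summed to 492 CPM, against 604 CPM in the macrophages, and the part of these RNAs in the results was not tested.

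**Figure D1:**
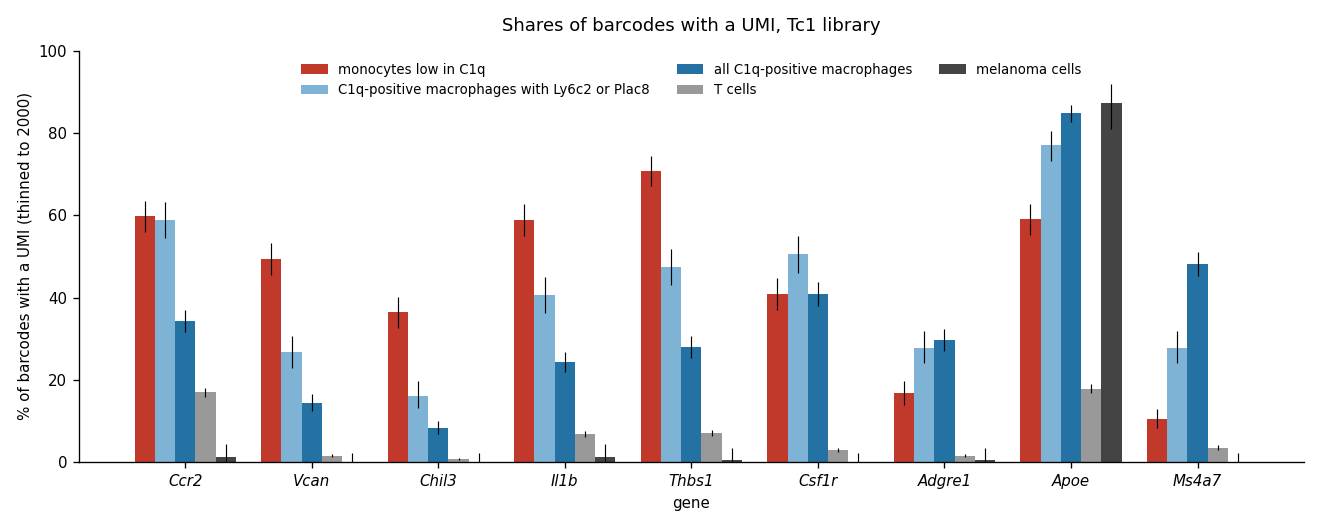
Bars give the share of barcodes with at least 1 UMI of each gene after thinning to 2000 UMIs, in monocytes low in C1q, 2 sets of C1q-positive macrophages, T cells and melanoma cells of the Tc1 library; lines are exact 95% intervals. Ccr2 stood at 59.8% in the members and 58.9% in macrophages with Ly6c2 or Plac8, while Vcan, Chil3, Il1b and Thbs1 stood highest in the members and Ms4a7 lowest among the myeloid bars.

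Against C1q-positive macrophages, the members held more RNA of inflammatory and classical monocyte genes and less of lipid-handling, iron and macrophage identity genes. Levels were compared as the log2 ratio of summed CPM, members over macrophages, with an exact conditional 95% interval. A gene was counted as higher or lower at 2-fold, a log2 ratio of 1, when the mean CPM of both populations was at least 20 and the gate did not use it. Of 5422 such genes, 157 (2.90%) were higher and 145 (2.67%) lower, and the median ratio was 0.05. The barcodes were picked by genes that vary together with many others, so these counts describe the populations the rule made and are no test of a difference. A gene could also reach the mean of 20 CPM through 1 population alone. Among those under 20 CPM in the members and counted as lower were Igf1, Ccl8, Atp6v0d2, Fcrls, Ube2c and Birc5. With every barcode weighted alike by the mean of its own CPM, 286 genes were higher and 186 lower, and among the 661 genes whose T cell CPM was under 25% of the higher of both levels, 97 were higher and 78 lower.

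**Figure D2:**
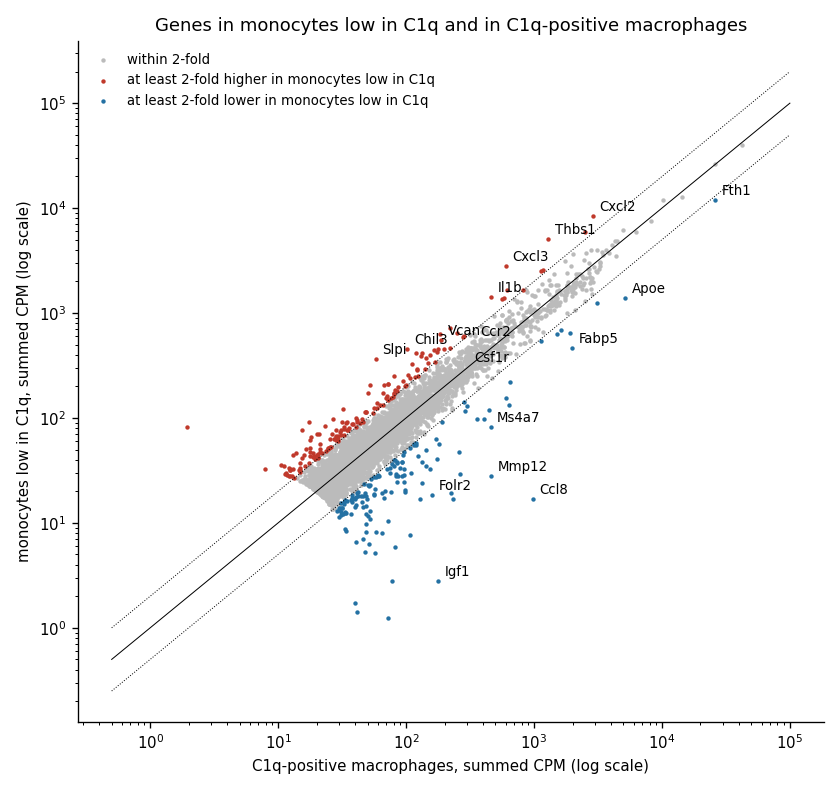
Each point is 1 gene at a mean of at least 20 CPM, with its summed CPM in monocytes low in C1q on the vertical axis and in C1q-positive macrophages on the horizontal axis, both on log scales; the solid line marks equal levels and the dotted lines 2-fold. Slpi, Cxcl3, Chil3 and Thbs1 lie above the band, Igf1, Ccl8 and Mmp12 far below it, and Csf1r on the line of equal levels.

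Genes were grouped in lists by known role. Of 19 classical monocyte genes measured, 8 were higher, 1 was lower, and the list median was 0.69. Chil3, a chitinase-like protein of myeloid cells, was at 453 CPM in the members and 102 CPM in the macrophages (log2 ratio 2.15, 2.05 to 2.26). It ran from 0 to 67 UMIs per member with a median of 1, against 0 to 107 with a median of 0 in macrophages. Hp, the haemoglobin-binding haptoglobin, was at 205 CPM in the members against 51.9 CPM. Vcan, a matrix proteoglycan, had 552 CPM in members and 187 CPM in macrophages (1.56, 1.48 to 1.65), with a median of 3 UMIs per member against 0.

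Ccr2 itself stayed under 2-fold at 544 CPM in members against 337 CPM in macrophages (0.69, 0.62 to 0.76). Members had 0 to 25 Ccr2 UMIs with a median of 4, and macrophages 0 to 27 with a median of 0. Against macrophages with Ly6c2 or Plac8, at 507 CPM, the ratio was 0.10 (0.03 to 0.17). Lyz1, a second lysozyme gene close in sequence to Lyz2, was the lower member of the list at 14.5 CPM against 48.9 CPM (-1.75); reads of these near copies may be shared. On the non-classical list, 2 of 8 were higher: Nr4a1, the nuclear receptor that patrolling monocytes need, at 448 CPM against 165 CPM (1.44), and the integrin gene Itgal at 66.2 CPM against 18.1 CPM (1.87). Cx3cr1, the fractalkine receptor of patrolling monocytes, was at 44.4 CPM against 55.4 CPM, and Treml4 at 13.4 CPM against 7.47 CPM was under the minimum.

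Inflammatory cytokines and sensors had the highest list median, 1.24, with 12 of 18 genes higher and 0 lower. Il1b, the fever cytokine IL-1 beta, was at 1406 CPM in the members and 460 CPM in the macrophages (1.61, 1.56 to 1.66). It was seen in 502 of 656 members (76.5%), with a median of 6 UMIs and at most 101, and in 33.8% of macrophages, with a median of 0. Thbs1, the matrix protein thrombospondin-1, was at 5099 CPM against 1295 CPM (1.98, 1.95 to 2.01), with 0 to 577 UMIs per member (median 18) and 0 to 514 (median 0) per macrophage. The ranges of all these genes overlapped between the populations. Their medians over barcodes differed, but these and the Il1b shares are raw UMIs at unequal depth. In macrophages with Ly6c2 or Plac8, at like depth, the medians were 1 UMI for Il1b, seen in 59.6%, and 2 for Thbs1.

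Osm, a cytokine of the IL-6 family, was at 633 CPM in members against 185 CPM (1.78), and Ptgs2, the inducible cyclooxygenase of prostaglandin synthesis, at 718 CPM against 222 CPM (1.69). Trem1, an amplifying receptor of innate cells, was at 97.8 CPM against 26.6 CPM (1.88). The sensors Nlrp3, Tlr2, Clec4e and Cd14 had log2 ratios of 1.21, 1.20, 1.28 and 1.27, and Nfkbia, the inhibitor of NF-kappaB, 1.41. Tnf at 0.77 and Tlr4 at 0.92 were under 2-fold, and Il1rn, which encodes the natural antagonist of IL-1, was the lowest of the list at -0.38.

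Among 17 chemokine genes, 3 were higher and 4 lower, with a median of 0.45. The higher ones were the neutrophil attractants Cxcl3 (2834 CPM in members, 605 CPM in macrophages, 2.23, 2.19 to 2.27), Cxcl2 (8465 CPM against 2871 CPM, 1.56) and Cxcl1 (1.11). The lower ones included Ccl8, a chemokine of tissue macrophages, at 16.9 CPM against 983 CPM (-5.86, -6.15 to -5.59). Ccl8 had a UMI in 69 of 656 members, at most 10 per barcode, and in 577 of 1277 macrophages, up to 207. Cxcl16 was at 56.5 CPM against 180 CPM (-1.67), Ccl12 at -1.56 and the interferon-gamma-induced T cell attractant Cxcl9, with 83 UMIs in the members against 512 (-2.01). Ccl2 (3631 CPM against 2029 CPM, 0.84) and Ccl7 (1850 CPM against 1350 CPM, 0.45), both ligands of CCR2, were within 2-fold.

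Cxcl3, Cxcl2 and the platelet factor gene Pf4 lie close together on chromosome 5 (Cxcl3 from 90786101 to 90788093, Cxcl2 from 90903899 to 90905938 and Pf4 from 90772435 to 90773383, GRCm38.p6). They are also among the genes that vary most from member to member, so the 250 bases before their starts are shown (RefSeq, GRCm38.p6, plus strand, 5′ to 3′). Capitals mark a match on either strand to a form of the NF-kappaB motif, which is GGG, any 2 bases, then TTTCC.
Cxcl3, chr5:90785851-90786100: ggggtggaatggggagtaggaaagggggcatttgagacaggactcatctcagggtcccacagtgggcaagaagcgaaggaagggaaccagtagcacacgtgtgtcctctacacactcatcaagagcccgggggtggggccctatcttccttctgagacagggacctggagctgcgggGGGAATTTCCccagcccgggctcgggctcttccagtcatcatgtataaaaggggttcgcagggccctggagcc
Cxcl2, chr5:90903649-90903898: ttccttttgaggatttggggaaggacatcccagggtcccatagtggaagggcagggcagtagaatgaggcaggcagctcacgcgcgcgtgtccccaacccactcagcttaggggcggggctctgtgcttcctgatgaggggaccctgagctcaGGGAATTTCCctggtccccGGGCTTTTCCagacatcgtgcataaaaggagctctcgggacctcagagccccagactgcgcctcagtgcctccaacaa
Pf4, chr5:90772185-90772434: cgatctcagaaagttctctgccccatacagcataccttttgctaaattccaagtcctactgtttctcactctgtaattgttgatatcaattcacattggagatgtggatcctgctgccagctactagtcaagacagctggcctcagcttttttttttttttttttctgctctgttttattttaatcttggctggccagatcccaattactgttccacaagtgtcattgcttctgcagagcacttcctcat

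The motif lay 73 bases before the start of Cxcl3, it occurred 2 times before that of Cxcl2, and no match was in the Pf4 window. Of 32851 RefSeq promoters of this length, 464 (1.41%) held the motif. Of the inflammatory list, 14 of 21 genes had a promoter among those searched, some of them more than 1. Promoters on chromosome 18 were left out of this search but not of the 32851. Of the 14 genes, 3 had a match in any of their promoters (Il6, Nfkbia and Il1rn). The other motifs searched were AP-1 (TGANTCA), C/EBP (TTGC, any 2 bases, then AA) and CRE (TGAC followed by GTCA), which lay in 6.75%, 9.56% and 1.55% of all promoters. They lay before 3, 3 and 0 of the 14 inflammatory genes, and of the windows shown, that of Pf4 alone held one, a C/EBP match. The gene Ppbp, also uneven among members, lies near Pf4 on chromosome 5 (90768518 to 90770063). Its window, not shown, held no NF-kappaB match and 1 AP-1 match. These are matches of letters, and binding was not measured.

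Genes of tissue macrophage identity pointed the other way, with 0 of 18 higher, 8 lower and a median of -0.88. Folr2, a folate receptor of resident macrophages, was at 18.4 CPM in the members against 160 CPM in the macrophages (-3.12, -3.40 to -2.85). Ms4a7, a membrane protein of macrophages, was at 82.2 CPM against 458 CPM (-2.48, -2.61 to -2.35), with a median of 0 UMIs per member and 2 per macrophage. Fcrls was at 5.94 CPM against 82.3 CPM (-3.79), and Adgre1, which encodes the macrophage marker F4/80, at 91.4 CPM against 191 CPM (-1.06). Mrc1, the mannose receptor, at 279 CPM against 523 CPM (-0.91) was within 2-fold.

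Not every gene of the macrophage lineage was lower in the members. Csf1r, the receptor for the growth factor of monocytes and macrophages, was at 307 CPM against 304 CPM (0.01, -0.07 to 0.10), with 40.9% of thinned members and 40.8% of macrophages holding a UMI.

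Of 16 lipid-associated macrophage genes, 9 were lower and 0 higher (median -1.28). Apoe, the lipid carrier, was at 1400 CPM in members against 5184 CPM (-1.89, -1.92 to -1.86), with 0 to 261 UMIs per member (median 4) and 0 to 705 (median 21) per macrophage. Apoe was also seen in 17.9% of T cells and 87.2% of melanoma cells, and the part of free RNA in its level was not tested. Fabp5, a fatty acid binding protein, was at 466 CPM against 1986 CPM (-2.09), and Lpl, which releases fatty acids from lipoproteins, at 40.6 CPM against 175 CPM (-2.11). Cd63, Gpnmb and the lipid sensor Trem2 had log2 ratios of -2.25, -1.90 and -1.86. Spp1, the secreted protein osteopontin, did not follow them at -0.06, and Cd9 was at 0.94.

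In the lysosome list, 6 of 22 were lower and 0 higher (median -0.52). The proteases Ctsb (1242 CPM against 3110 CPM, -1.32) and Ctsd (686 CPM against 1618 CPM, -1.24) were among them, as was Atp6v0d2, a proton pump subunit, with 8 UMIs in the members and 703 in the macrophages (1.25 CPM against 71.9 CPM). Ctss at -0.19 and Laptm5 at -0.02 showed nearly equal levels. Of 8 iron and heme genes, 5 were lower and 0 higher (-1.09). Fth1, the ferritin heavy chain that stores iron, was at 12014 CPM against 26014 CPM (-1.11), and the heme-degrading Hmox1 was at -1.08.

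The largest ratio in either direction among the genes named by size was Igf1, the insulin-like growth factor, with 18 UMIs in 13 of 656 members (2.81 CPM) and 1726 UMIs in 464 of 1277 macrophages (177 CPM; -5.97, -6.73 to -5.31). Mmp12, the macrophage elastase, was at 28.0 CPM against 460 CPM (-4.04). Some of the lowest ratios rested on few macrophages. Retnla, a secreted protein induced by IL-4, had 851 of its 2260 UMIs in 1 of the 49 macrophages that held it, against 109 UMIs in 12 members. Hspb1 and Sparc had a UMI in 78 and 57 macrophages, against 28 and 27 members.

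Slpi, a secreted inhibitor of serine proteases, had the highest ratio of these genes at 365 CPM in the members against 57.9 CPM in macrophages (2.65, 2.52 to 2.79). It was uneven, with a UMI in 292 of 656 members, a median of 0 and a highest of 167. Mcemp1, a membrane protein of myeloid cells, followed at 92.0 CPM against 17.4 CPM (2.40). Slc7a11, the cystine importer, was at 174 CPM against 50.1 CPM (1.79), and F10, coagulation factor X, at 412 CPM against 134 CPM (1.62).

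Genes tied to suppression of T cells were mixed. Of 14 measured, 4 were higher and 1 lower (median 0.54). Arg1, arginase, was within 2-fold at 2354 CPM against 1440 CPM (0.71, 0.68 to 0.74) and had a UMI in 46.2% of thinned members and 38.0% of macrophages. The angiogenic factor Vegfa (397 CPM against 155 CPM, 1.36) and the checkpoint gene Havcr2 (77.2 CPM against 28.5 CPM, 1.43) were higher, and Cd274, which encodes PD-L1, was at 133 CPM against 93.4 CPM (0.51). Nos2, the inducible nitric oxide synthase, was at 28.9 CPM against 11.7 CPM (1.31) with a UMI in only 2.61% of thinned members.

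The interferon and antigen presentation lists had medians close to that of all genes. Of 34 type I interferon response genes, 0 were higher and 0 lower (median 0.21). Of 16 class I genes, 0 passed in either direction (-0.05), with B2m at 2156 CPM against 2849 CPM (-0.40). Of 13 class II genes, Cd80 was higher (99.8 CPM against 40.8 CPM, 1.29) and Cd40 lower (18.4 CPM against 37.6 CPM, -1.03). H2-Aa was at 2528 CPM in the members against 3072 CPM (-0.28). The interferon-gamma list had 2 of 13 higher (Upp1 and Acod1) and 1 lower (Cxcl9).

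Of 26 myeloid transcription factor genes, 3 were higher and 1 lower (median 0.50). Cebpb, a driver of monocyte and neutrophil genes, was at 2504 CPM in members against 1137 CPM (1.14), and Hif1a, the oxygen-sensing factor, at 468 CPM against 220 CPM (1.09). Pparg, which acts in lipid-handling macrophages, was at 13.9 CPM against 29.8 CPM (-1.10), and Irf8 at 127 CPM against 135 CPM. Hypoxia genes had 2 of 13 higher, glycolysis genes 1 of 15, both with 0 lower. S100 and annexin genes had 2 of 11 higher, and chemokine receptor and adhesion genes 3 of 16, with 0 lower in both. The 29 nuclear genes of oxidative phosphorylation had 0 higher and 0 lower (-0.09). Of 18 G2M genes listed, 4 were measured, and Ube2c (8.12 CPM against 48.5 CPM) and Birc5 (9.84 CPM against 48.5 CPM) were lower. Both passed the minimum only through the macrophages. Of 3 measured S phase genes, Dut was lower.

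The remaining lists are given here with their calls. Of 11 genes of the response to IL-4 and IL-13, 2 were higher, Chil3 and the transcription factor gene Egr2 (52.0 CPM in members against 24.4 CPM, 1.09), and 3 lower, Ccl8, Retnla and the lectin gene Clec10a (-1.02), with a median of 0.34. Of 5 dendritic cell genes, Napsa (251 CPM against 81.1 CPM, 1.63) and Cd209a (32.8 CPM against 7.88 CPM, 2.06) were higher and Clec10a lower. Cd209a was found in only 2.74% of members and 0.470% of macrophages, and it passed the minimum through the members. Of 4 neutrophil genes measured, 3 were higher, Cxcl2, Acod1 (1.08) and Il1r2, the decoy receptor of IL-1 (82.8 CPM against 33.0 CPM, 1.33). The median of these 4 was 1.20. Of 14 Fc receptor and complement genes, C4b was lower (-2.02) and 0 were higher. Of 20 heat shock and immediate early genes, Ier3 was higher (1373 CPM against 558 CPM, 1.30) and Hspb1 lower (-2.48), with a list median of 0.50.

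**Figure D3:**
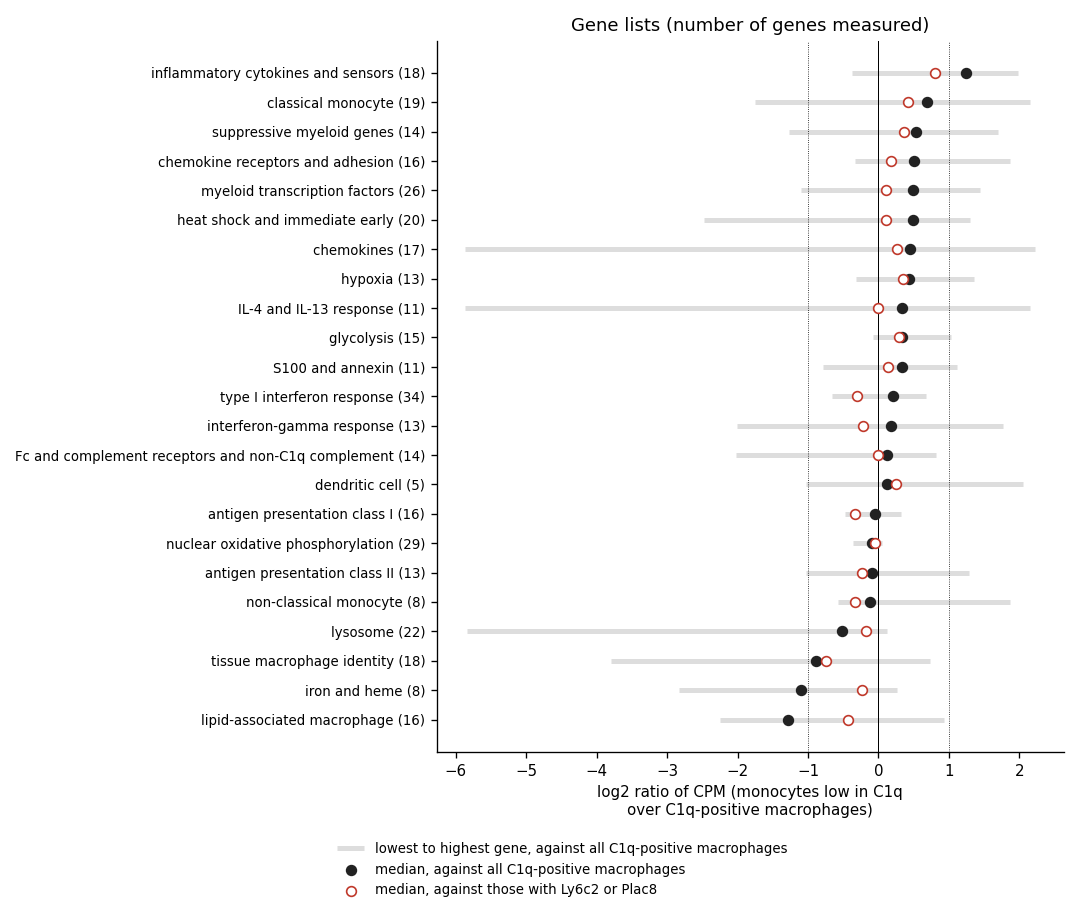
For each gene list with at least 5 measured genes, the black point gives the median log2 ratio of CPM, members over all C1q-positive macrophages, the grey bar the range over its genes, and the open red point the median against macrophages with Ly6c2 or Plac8. Inflammatory genes have the highest black point at 1.24 and lipid-associated genes the lowest at -1.28, and the open points of both lie nearer to 0.

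Fewer genes passed against the 517 macrophages with Ly6c2 or Plac8, which differ from the others both in depth and in having been chosen on monocyte genes. Against them, 38 of 5498 genes (0.691%) were higher in the members and 80 (1.46%) lower, with a median of -0.04. Thinning the members and all C1q-positive macrophages to 2000 UMIs gave 280 genes higher and 197 lower. That step also left out 5 members and 106 macrophages under that depth and weighted the other barcodes alike. Equal weighting without thinning gave 286 and 186, and the part of depth in these counts was not tested. Against the macrophages with Ly6c2 or Plac8, the inflammatory list kept 5 of 18 higher (median 0.80) and the classical list 3 of 18 (0.42). Tissue macrophage identity genes had 7 of 18 lower (-0.74), lipid-associated genes had 4 of 16 lower and 1 higher (-0.43) and iron and heme genes 0 of 7 (-0.23). Slpi at 2.01, Cxcl3 at 1.62, Chil3 at 1.54 and Thbs1 at 1.33 were past 2-fold in both comparisons. Il1b at 0.96, Cxcl2 at 0.96 and Vcan at 0.88 were not, nor was Fabp5 at -0.42, while Ccl8 was at -3.05, Folr2 at -2.43 and Apoe at -1.30. The 2 comparisons share the members, so they are given side by side only.

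Of 13 class II genes, 1 was lower than in these macrophages and 0 higher (median -0.23). H2-Aa, at 2528 CPM in members against 4145 CPM (-0.71), and H2-Eb1, at 1690 CPM against 3174 CPM (-0.91), were within 2-fold. Of 35 type I interferon genes, 1 was lower and 0 higher, and their median was -0.31.

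The members were also followed across the step on C1q. Among barcodes that met the other steps, 422 had 0 C1q UMIs, 209 had 1 or 2, 25 had 3 or 4, 62 had 5 to 9, 78 had 10 to 19, 165 had 20 to 49 and 212 had 50 or more. The bins differ in width, so these numbers show no gap at the limit. Median depth per bin ran from 7157 to 10455 UMIs. Vcan had a UMI in 49.8% of thinned barcodes without C1q and in 17.0% of those with 50 or more, and Thbs1 in 69.4% and 36.8%. Cxcl3 was at 33.0% and 9.43% in the same bins and Chil3 at 36.6% and 10.8%. Ms4a7 was at 9.33% and 35.4%, Apoe at 56.9% and 84.9%, and H2-Aa at 55.5% and 85.4%. Of these genes, only Ms4a7 moved steadily over the bins. Thbs1 was at 43.4% with 10 to 19 C1q UMIs and at 61.6% with 20 to 49, and Cxcl3 at 15.8% and 26.2%. Vcan was at 20.8% of the 24 thinned members with 3 or 4 C1q UMIs and at 36.1% with 5 to 9.

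Ccr2 showed no such difference between the end bins. It lay between 47.5% and 63.2% in all 7 bins, with 59.8% at 0 C1q UMIs and 59.4% at 50 or more. Arg1 was highest at 59.8% with 20 to 49 C1q UMIs and lowest at 30.2% in the next bin, with no steady order over the 7 bins (46.4% at 0 and 39.3% at 5 to 9). C1q is the axis here and was counted in raw UMIs, so bins at the low end can also hold shallow barcodes of a higher level.

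**Figure D4:**
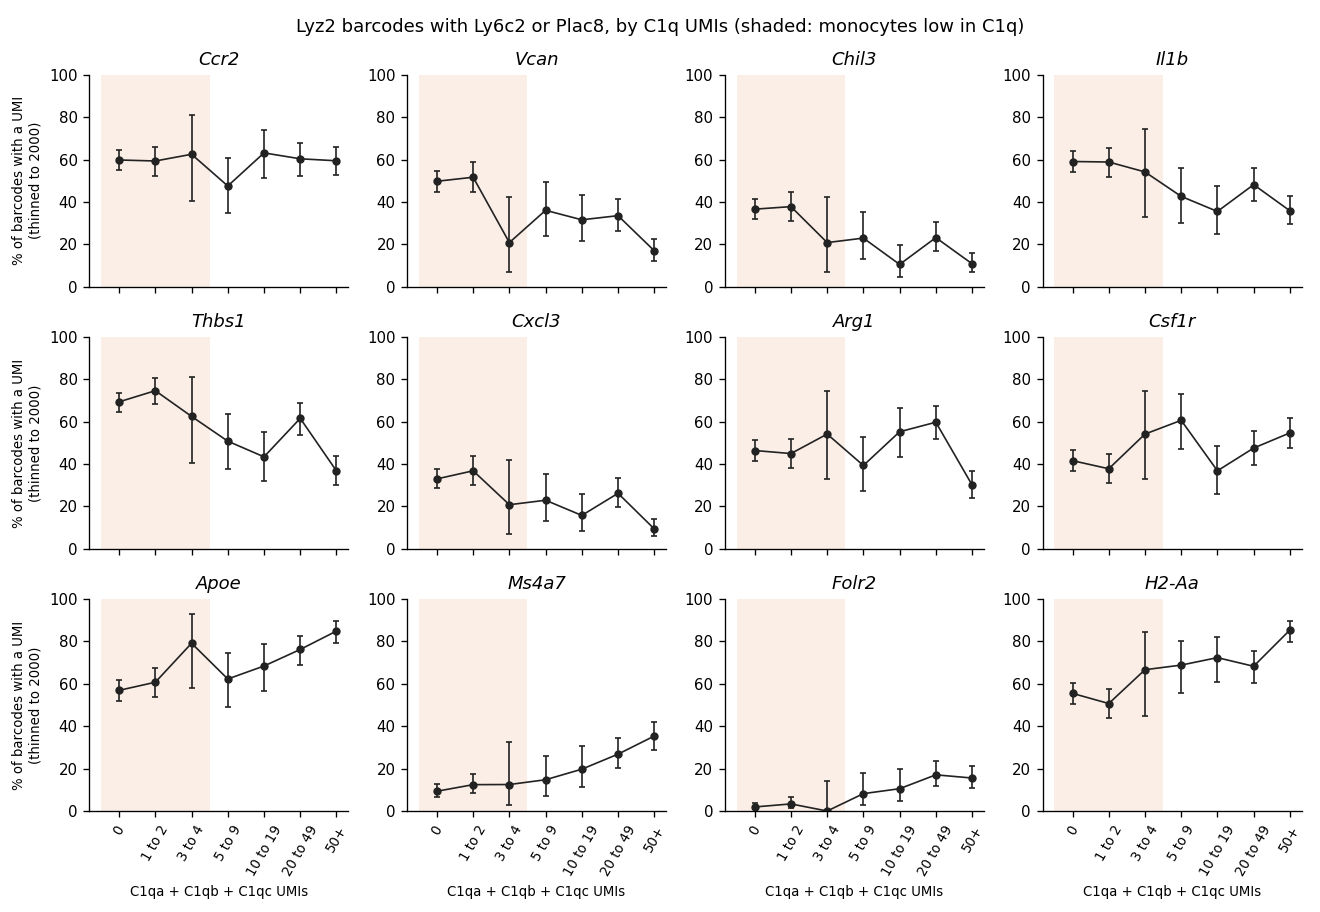
Each panel gives, for 1 gene, the share of thinned barcodes with a UMI over 7 bins of raw C1q UMIs, among barcodes that met the other steps of the rule; bars are exact 95% intervals and the shaded bins are the monocytes low in C1q. Vcan, Chil3, Thbs1 and Cxcl3 are higher at the left than in the last bin, Apoe, Ms4a7 and H2-Aa higher in the last bin, and Ccr2 lies between 47.5% and 63.2% throughout.

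Undoing the other steps gave neighbours of unlike kinds. The 239 barcodes that failed only on Csf3r, a receptor gene best known from neutrophils, were close to the members: 17 of 5463 genes (0.311%) were higher in the members and 55 (1.01%) lower, and Ccr2 was at 544 CPM in the members against 543 CPM. Their 8 other neutrophil markers summed to 477 CPM against 54.0 CPM in the members. Few of these barcodes carried that sum, with S100a9 (261 CPM) in 3.77% and S100a8 (176 CPM) in 7.11% of the 239. Their Vcan was at 336 CPM. Arg1 (2354 CPM in the members against 1000 CPM, 1.23) and Pf4 (1003 CPM against 361 CPM, 1.47) were higher in the members. The rule thus set aside, with Csf3r, barcodes that carried the monocyte genes as well.

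The 200 barcodes low in C1q with fewer than 3 UMIs of Ly6c2 and Plac8, of which 52.0% had at least 1, differed in more genes, with 116 of 5333 genes (2.18%) higher in the members and 100 (1.88%) lower. They were shallower, at a median of 5740 UMIs. Of 33 type I interferon genes, 23 were higher in the members (median 1.37), beside a gate gene, Ly6c2, that is itself known to be induced by interferon, with Bst2 at 419 CPM against 153 CPM (1.46) and Slfn4 at 181 CPM against 54.6 CPM (1.72). Arg1 was at 2354 CPM in the members against 4387 CPM, Cxcl3 at 2834 CPM against 5761 CPM and Mmp12 at 28.0 CPM against 506 CPM (-4.18).

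The members were not alike among themselves. Over 2859 genes with a mean of at least 0.1 thinned UMI, the median ratio of variance to mean was 1.11, where 1 is what random sampling of equal cells gives. The most uneven were Hbb-bs (500, from 1 barcode as above), Hbb-bt, Gm42418 and Cmss1, of which the last pair, known to pick up ribosomal RNA reads, was in all members. Pf4 (31.8), Fth1 (31.0), Thbs1 (30.3), Cxcl3 (25.8), Cxcl2 (23.6) and Cd74 (22.5) followed. The 33 members with most of it held 60.7% of the Pf4 UMIs, 45.0% of the Cxcl3 UMIs and 96.6% of those of Ppbp, a platelet chemokine. Arg1 was at 13.5.

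Several of the uneven genes were followed along their order by class II UMIs, an axis chosen after the uneven genes were known. When 651 thinned members were ordered by the summed UMIs of H2-Aa, H2-Ab1, H2-Eb1 and Cd74 and split into 3 groups of 217, the groups had medians of 1, 11 and 59 class II UMIs and median depths of 9941, 9240 and 9226. These are ranges of a score and not cell types, and the limits, at 2 and at 29 UMIs, cut through tied values. Cxcl3 had a mean of 10.3, 4.81 and 0.553 UMIs per 2000 in the low, middle and high group. Thbs1 had 18.0, 10.0 and 4.10, Arg1 7.24, 4.86 and 2.01, and Pf4 4.59, 1.87 and 0.406. Chil3 (1.66, 0.811 and 0.323) and Vcan (1.97, 1.16 and 0.544) were also lower in each later group.

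Other genes, uneven ones among them, had another order across these groups. Spp1 had 2.12, 2.31 and 1.27 UMIs per 2000, and the heat shock gene Hspa1a 0.627 in the low and 0.949 in the middle group, with its highest mean in the high group. Ccr2 had 1.19, 1.27 and 1.14 UMIs per 2000, and Il1b 2.72, 2.76 and 2.73. Ly6a, an interferon-induced surface protein, had 0.272, 0.677 and 1.88, Apoe 2.14, 2.91 and 4.17, and Ciita, the switch of class II transcription, 0.0138, 0.0369 and 0.226. The dendritic cell genes Flt3, at 0.0184, and Cd209a, at 0.152, were near 0 also in the high group. C1q had 0.134, 0.180 and 0.0783.

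**Figure D5:**
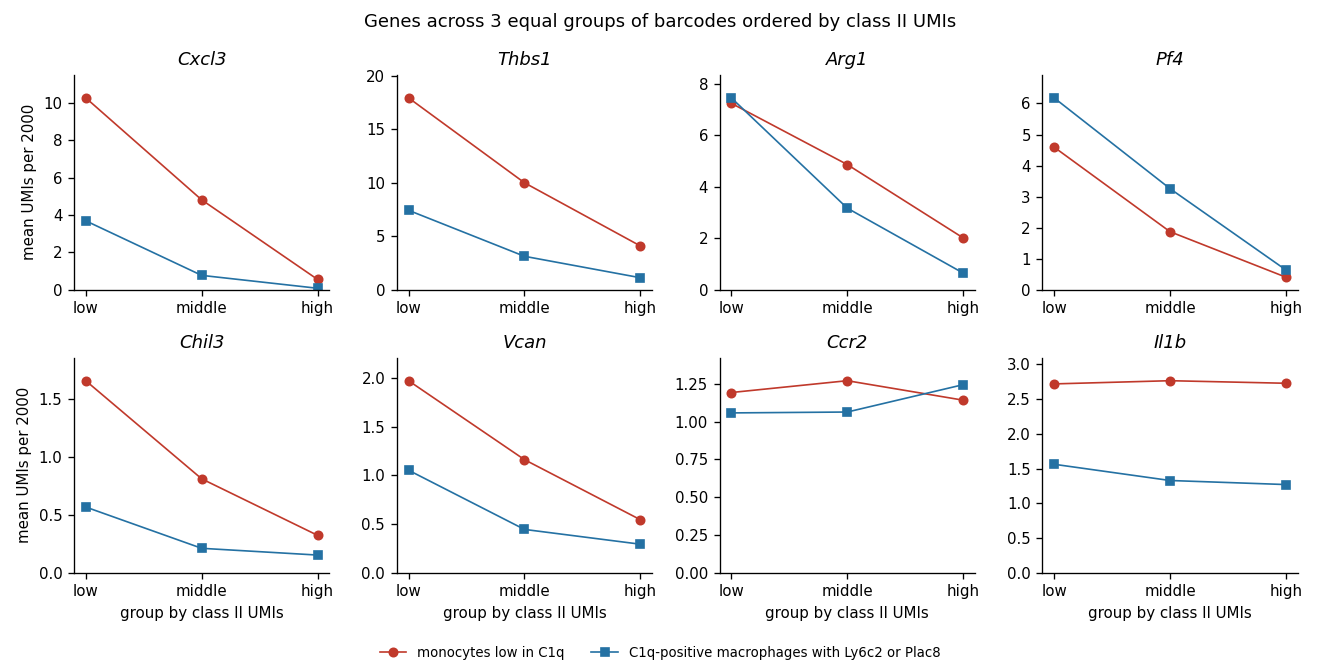
Mean UMIs per 2000 of 8 genes in barcodes ordered by class II UMIs and split into 3 equal groups, for monocytes low in C1q (red circles) and C1q-positive macrophages with Ly6c2 or Plac8 (blue squares). In both, Cxcl3, Thbs1, Arg1, Pf4, Chil3 and Vcan are lower in each later group, and Ccr2 stays between 1.06 and 1.27.

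The same order was found in macrophages with Ly6c2 or Plac8, where Cxcl3 had 3.69, 0.772 and 0.0819 UMIs per 2000 and Arg1 7.45, 3.17 and 0.649. In the barcodes with Csf3r, Cxcl3 had 5.76, 2.92 and 0.0886. Across the 651 members, Pearson's r of log2(thinned UMIs + 1) was 0.68 between Thbs1 and Cxcl2, 0.70 between Ccl2 and Ccl7, 0.60 between Cxcl3 and Arg1, -0.46 between Cxcl3 and class II, and 0.02 between Ccr2 and class II. These are over cells of 1 library with equal depth after thinning, and cells are not replicates. Of 301 thinned members with an Arg1 UMI, 181 also held Cxcl3 (60.1% of these and 82.3% of the 220 with Cxcl3), while 33.8% of all members held Cxcl3. Ccl2 was found in 259 of the 274 with Ccl7 (94.5%, and 55.5% of the 467 with Ccl2).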

How the data were processed

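RNA libraries were made with the 10x 5′ v2 chemistry, per the labels' protocols, and Cell Ranger 7.0.0 with mm10 is named in the submitters' processing notes. The deposited matrices hold counts of UMIs per gene and barcode (32285 genes), not normalized. The Tc1 library held 106053410 UMIs in 13406 barcodes and the Tc9 library 50713493 in 8449. From them, UMIs were summed per population, scaled to a total of 1000000 (CPM) and compared as log2 ratios with exact conditional 95% intervals, with 0 counts set to 3. The intervals take UMIs as independent, which understates the error of a gene concentrated in a few barcodes. T cells had at least 3 Cd3 UMIs and under 10 of Lyz2, and melanoma cells at least 20 UMIs of Pmel, Dct and Mlana and 0 of Ptprc. No doublet caller was run. The steps on Cd3 and Csf3r do not remove doublets with melanoma, dendritic or red cells. Members reached 84237 UMIs, with a 95th percentile of 15445, and the part of doublets in the results was not tested. Python 3.11.15, NumPy 2.4.6, pandas 2.3.3 and SciPy 1.17.1 were used, the ratios and calls were tested on simulated data, and the thinned totals were checked.

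The members, the 26 gene lists and the 15 marker lists were chosen with earlier results of these data known, and the class II axis after the most variable genes had been seen. Genes were named by rule: the 15 highest and 15 lowest ratios at a mean of at least 50 CPM, up to 4 genes per list, the 15 most variable among the members, and a fixed set of 20; other list members are given as examples. The deposited TCR contig tables, whose read and UMI counts the authors made, were used only to mark barcodes. Of the alternatives, 21 were planned and 3 were added after seeing the data. Some genes that the rule names are not reported here.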

Additional observations from a re-analysis of the deposited data

Results flagged for a closer look

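A productive T cell receptor contig was deposited for 6 of the 656 monocytes low in C1q (0.915%, exact 95% interval 0.336 to 1.98%), a signal in data outside the main measurement. The share was 0.705% (9 of 1277) in C1q-positive macrophages, 1.18% (2 of 170) in melanoma cells and 70.7% (3564 of 5042) in T cells. Without the barcodes with a contig, 156 genes were at least 2-fold higher in the members than in C1q-positive macrophages, and 145 lower.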

How the results depend on the processing

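The share of members was 5.50% and became 3.54% with no C1q UMI allowed, 4.62% with at least 20 Lyz2 UMIs, 3.38% with Ly6c2 alone, 3.93% with at least 10 UMIs of Ly6c2 and Plac8, and 7.50% without the Csf3r step. The Ccr2 share of 59.8% was 89.6% without thinning and 38.4% at 1000 UMIs. It lay between 58.8% and 63.2% under the other changes to the gate that were run. The 157 higher and 145 lower genes became 38 and 80 against macrophages with Ly6c2 or Plac8. They became 280 and 197 when thinned, 60 and 126 when both were done, and 286 and 186 with each barcode's own CPM. They were 94 and 68 at a mean of at least 50 CPM, 2790 and 1970 of 18566 genes with no minimum beyond 1 UMI, 518 and 370 at 1.5-fold, and 97 and 78 without genes with T cell RNA. These last 4 follow from the number of genes or the fold, and the cause of the others was not tested. The 80 named genes past 2-fold that kept a value had their sign under each alternative run, while 39 of 71 were still past 2-fold when both were done. Without genes with T cell RNA, 22 list medians had a value and 21 kept their sign. Under the other alternatives, 19 to 26 of 26 list medians did. The median of the G2M list, -1.28 from 4 genes, was 0.055 when thinned against macrophages with Ly6c2 or Plac8. Depth limits genes under 20 CPM. No paired analysis was possible because each group is 1 library. Leaving out a replicate was not possible either.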

Other observations

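Cck, a neuropeptide gene, had 520 UMIs in the members (81.2 CPM) and 19 UMIs in C1q-positive macrophages (1.94 CPM), and was singled out after its values were seen. Of the member UMIs, 337 lay in 1 barcode and 162 in another, with 21 barcodes holding any. In the macrophages none of the 19 barcodes held more than 1.

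Of the 157 genes higher in the members, 27 had over 50% of their member UMIs in the 33 members that held most. Of the 145 lower genes, 64 had over 50% of their macrophage UMIs in the 64 macrophages that held most.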
